A study of Mus musculus with 30 samples.

Results

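The 2 by 2 experiment examined here asked whether cultured mouse cells labelled as colonocytes respond to TNF differently when TGFB1 and BMP2 are present. The name colonocyte is used throughout as a label, because the markers given below did not match colon epithelium. Its members are the 12 colonocyte libraries of the series, of 30 samples in all: every library whose title marks it as colonocyte culture was taken, and none was chosen by a measured value. The cells carry the label IMCfl/fl Smad4+ in all 4 groups, so intact Smad4 is shared by every arm. There were 3 libraries each of untreated cells, cells given TNF, cells given TGFB1 with BMP2, and cells given all 3 ligands. Each library bears a number from 1 to 3 in its title. The sources used here do not state whether the cells are 1 clone, the ligand doses, how long treatment lasted, or what separates replicates 1 to 3. The p-values therefore measure only the spread between these libraries. In the main fit, which has the number as a block, that is the spread left after differences between numbers are removed. Of 11728 genes in any of the 3 deposited colonocyte tables, 11434 were listed in all 3 and all 11434 were tested.

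TNF binds its receptors and, through adaptor and kinase complexes, frees NF-kB subunits to enter the nucleus, where they induce chemokines, survival genes and their own inhibitors. TGFB1 and BMP2 act through receptor kinases that phosphorylate different SMAD proteins, and both kinds of SMAD work with Smad4. In the gut, TNF is known as a driver of inflammation, and TGFB and BMP signals are known for restraining epithelial growth and shaping repair.

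The interaction reported for each gene is the change from TNF alone to all 3 ligands, minus the change from untreated to TGFB1 with BMP2. It is a difference on the log2(CPM + 1) scale, where CPM are read counts scaled for library depth, so 0 means that the effects of TNF and of TGFB1 with BMP2 multiplied. A negative value means that the joint level was below the product of the separate effects, and a positive value that it was above. Adding 1 understates changes between low levels, and the interaction, a difference of changes, can thereby come out smaller or larger than on the reads themselves. A gene was called when its Benjamini-Hochberg adjusted p from limma over the 11434 genes was under 0.05.

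The joined genes held 34.8 to 42.9 M reads in the libraries numbered 1 and 2, and 21.6 to 25.2 M in those numbered 3. Smad4, which the label says is intact, stood between 117 and 123 CPM as a mean in all 4 groups, with an interaction of -0.04 (SE 0.06, adjusted p = 0.983 by limma). The colonocyte label was not matched by the markers of colon epithelium: only Krt8, Krt18 and Krt19 of 22 were listed in all 3 tables, summing to 27.0 to 46.9 CPM per library. Epcam, Cdh1, Vil1 and Cdx2 were among the 19 not listed there. Of 18 markers of mesenchyme and muscle, 15 were listed, and they summed to 8011 to 8701 CPM, with overlapping ranges in the 4 groups. Of 14 leukocyte markers Cd68 and Csf1r were listed (33.5 to 49.3 CPM summed), and Ptprc was not. Of 9 endothelial markers Kdr and Flt1 were listed, at a sum of 11.4 to 21.1 CPM in the groups without TGFB1 and BMP2 and of 34.1 to 43.2 CPM in those with them. The part of other cells in the results was not tested, and in bulk RNA fewer cells of a type and less RNA per cell cannot be told apart.

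The sequences before the start of genes in the lower group are shown first, because several of these genes are textbook targets of NF-kB or of interferon signals. RefSeq promoters (build GRCm38.p6) were found for 18 of the 26 genes called lower. Searched on both strands in the 250 bases before each start, the NF-kB motif GGNNTTNCC lay in 9 of the 18 genes (50%) and in 17.7% of 8713 tested genes with a promoter. The AP-1 motif TGANTCA lay in 6 of the 18 (33.3%) against 5.28% of all. The interferon response motif GAAANNGAA lay in 7 of the 18 (38.9%) against 7.31% of all. The SMAD palindrome GTCTAGAC and the SMAD GC element GGCGCC were found in 0 of the 18, against 0.253% and 20.5% of all. A gene was counted when any of its promoters held the motif, and some genes have several promoters. Per promoter the NF-kB share was 39.3% of 28, against 14.9% of 11154 over all genes tested. It was 21.4% against 4.34% for AP-1, and 25% against 6.02% for the interferon response motif. These counts are a description of letters in a window and no test was made of them. The promoters of 6 genes are printed for the 150 bases before the start, 5′ to 3′ on the gene's strand, with the matches in that window in capitals. All 6 printed promoters hold a match, whereas none of the motifs was found for Abtb2, Birc3, Gadd45b and Junb. Nfkb2 also has other promoters, not printed, without a match in that window. In Ccl20, Nfkb2 and Gbp5 the capitals mark NF-kB matches, which overlap each other in Ccl20 and at both sites of Nfkb2. In Cxcl10 they mark an NF-kB match and then an AP-1 match, in Nfkbia an interferon response match and then an NF-kB match, and in Gbp2 an AP-1 match and then an interferon response match.
Ccl20, chr1:83116616-83116765 (plus strand): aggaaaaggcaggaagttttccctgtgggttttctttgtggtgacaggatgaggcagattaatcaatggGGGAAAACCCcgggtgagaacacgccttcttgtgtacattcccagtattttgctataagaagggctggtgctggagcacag
Cxcl10, chr5:92348890-92349039 (minus strand): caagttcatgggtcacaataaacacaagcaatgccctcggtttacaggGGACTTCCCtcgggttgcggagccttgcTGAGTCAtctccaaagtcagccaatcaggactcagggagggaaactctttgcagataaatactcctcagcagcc
Nfkbia, chr12:55492648-55492797 (minus strand): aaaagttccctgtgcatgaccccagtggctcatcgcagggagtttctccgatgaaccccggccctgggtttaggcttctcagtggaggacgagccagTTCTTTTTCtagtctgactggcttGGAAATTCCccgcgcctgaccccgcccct
Nfkb2, chr19:46304587-46304736 (plus strand): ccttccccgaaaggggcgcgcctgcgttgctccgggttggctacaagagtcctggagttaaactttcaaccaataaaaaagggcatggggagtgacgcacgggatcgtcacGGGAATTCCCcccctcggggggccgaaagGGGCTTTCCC
Gbp5, chr3:142496784-142496933 (plus strand): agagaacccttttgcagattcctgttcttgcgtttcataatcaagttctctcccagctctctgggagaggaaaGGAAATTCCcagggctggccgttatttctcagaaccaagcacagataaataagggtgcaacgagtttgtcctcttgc
Gbp2, chr3:142620513-142620662 (plus strand): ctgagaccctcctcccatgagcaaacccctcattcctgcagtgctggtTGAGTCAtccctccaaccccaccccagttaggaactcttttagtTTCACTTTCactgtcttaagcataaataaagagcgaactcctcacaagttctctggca

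Of the 11434 genes, 30 were called for the interaction (0.262%), 4 higher (0.035%) and 26 lower (0.227%), and the median over all genes was -0.01. The 26 lower genes included the chemokines Ccl2, Ccl20 and Cxcl10, 5 guanylate-binding proteins (Gbp2, Gbp3, Gbp4, Gbp5 and Gbp9), the NF-kB genes Nfkbia, Nfkb2 and Birc3, and the AP-1 subunit Junb. Fbxo32, C1qtnf1, Angptl7 and Plat were higher. At an unadjusted p under 0.05 there were 711 genes, 272 higher and 439 lower. In the same fit, and with libraries shared between these comparisons, TNF alone changed 1636 genes (14.3%), 8.88% of all genes rising and 5.43% falling. TGFB1 with BMP2 changed 4803 (42%), 22.3% rising and 19.7% falling. Added to cells given TNF, TGFB1 with BMP2 changed 4794 (41.9%), 21.1% rising and 20.8% falling. TNF added to cells given TGFB1 with BMP2 changed 998 (8.73%), 5.53% rising and 3.2% falling. Scaling by total reads in place of TMM turned the split of higher and lower calls to 798 and 1030, 1520 and 3824, 1501 and 3928, and 513 and 592 for these 4 effects in order, while the interaction stayed at 4 higher and 25 lower. Calls for the joint departure were thus far fewer than calls for any of the 4 separate effects. The interaction also has a larger standard error than each separate effect (0.053 against 0.038 in Ccl2). The counts therefore do not compare how common the 2 kinds of change are.

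The calls rested on the fit with replicate number as a block, and without that term limma called 1 gene, Ccl20. The design is balanced, so the fitted values are the same with and without the block and only their errors differ. With the block, edgeR's quasi-likelihood test on the recovered reads also called 30 genes, of which 29 were shared. The gene that edgeR did not share was Ccl20 (adjusted p = 0.671 by edgeR). The count was 11 without untreated replicate 1, 8 without TNF replicate 1, 10 without TNF replicate 2, 17 without replicate 1 of all 3 ligands, 19 without TGFB1 with BMP2 replicate 1, 53 without TGFB1 with BMP2 replicate 2 and 78 without untreated replicate 3. In every one of the 12 fits that each left out 1 library, 8 genes were called: Ccl2, Junb, Gadd45b, Ccl20, Cxcl10, Abtb2, Lif and Fbxo32. All of these fits were on the log2(CPM + 1) scale, so they cannot show whether the Ccl20 call holds on another scale. The other 22 lost the call in at least 1 of these fits, and 12 of them were called in 6 or fewer of the 12 fits. Plat was called in 2 of the 12, Nfkbia and Plk2 in 3, Cmpk2, Parp14, Egr1 and Sgk1 in 4, Gbp3, Ripk2 and Frmd4b in 5, and Mcc in 6.

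**Figure D1:**
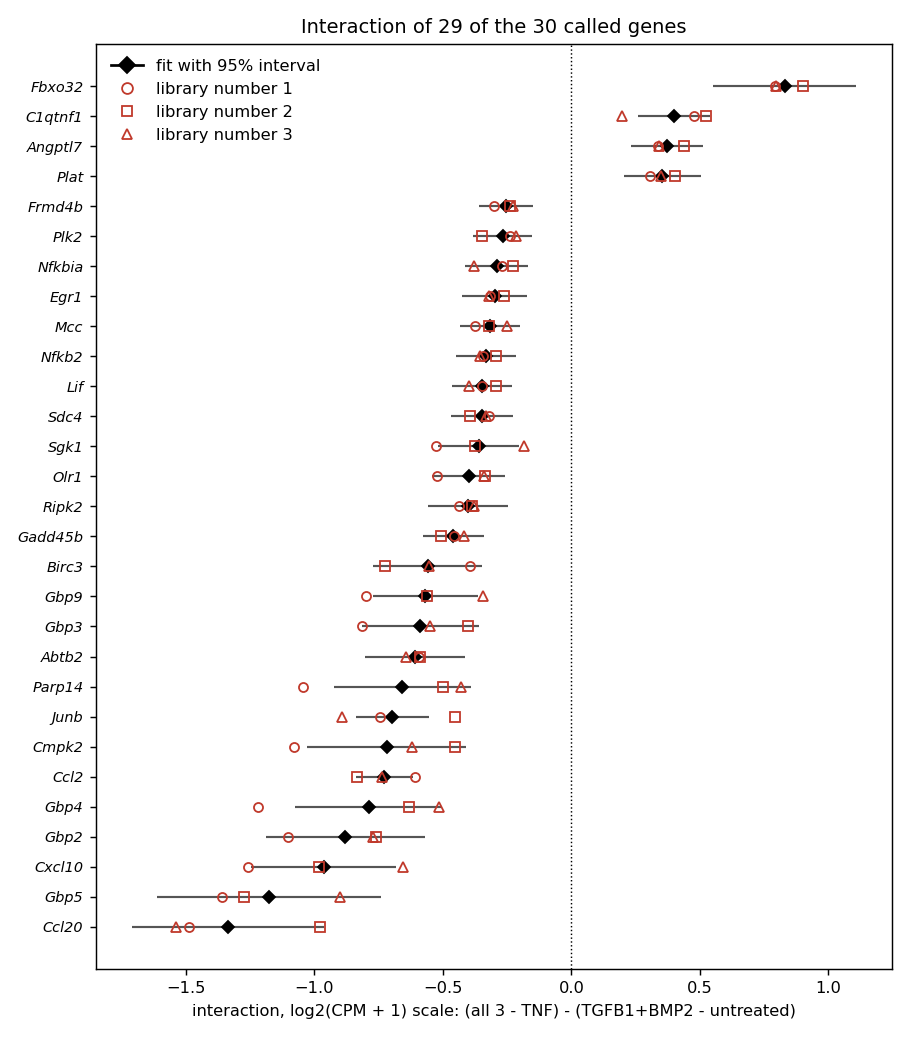
Interaction of 29 of the 30 called genes on the log2(CPM + 1) scale, with the fitted value and its 95% interval (black diamonds and lines) and the double difference within each library number (open red symbols). For each gene all 3 numbers lie on the same side of 0, from Ccl20 at -1.34 to Fbxo32 at 0.83.

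Chemokines are the secreted proteins that draw leukocytes to inflamed tissue. Of the 11 tested, 3 (27.3%, against 0.262% of all genes) were called, all lower. The list median was -0.31, against -0.01 over all genes. Members of this and the other gene lists were chosen with earlier results of these data known. List counts and medians are therefore descriptions, with no test made of them. Ccl2, which attracts monocytes, was the gene with the smallest p. It stood at 78.9, 75.0 and 67.1 CPM in untreated cells and at 1116, 1174 and 956 CPM with TNF. With TGFB1 and BMP2 it stood at 123, 120 and 109 CPM, and with all 3 ligands at 1132, 1049 and 929 CPM. TGFB1 with BMP2 thus raised Ccl2 where TNF was absent, and the 2 groups given TNF overlapped. TNF raised Ccl2 14.7 ± 0.840-fold without TGFB1 and BMP2 and 8.81 ± 0.372-fold with them (SD over the 3 numbers). Its interaction was -0.73 (SE 0.05, adjusted p = 8.03e-08 by limma), and the joint level was 60.2 ± 4.75% of the product of the separate effects.

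Ccl20, the ligand of Ccr6 on lymphocytes and dendritic cells and the chemokine of the series title, had the most negative fitted value. It stood at 2.30, 3.09 and 2.00 CPM untreated, and at 58.4, 59.0 and 45.5 CPM with TNF. It was at 0.62, 0.60 and 1.10 CPM with TGFB1 and BMP2, and at 9.40, 10.9 and 10.2 CPM with all 3. No 2 of the 4 groups overlapped, and TGFB1 with BMP2 lowered Ccl20 both without and with TNF. The interaction was -1.34 (SE 0.18, adjusted p = 0.000768 by limma). That value depended on the scale: Ccl20 under TGFB1 with BMP2 rested on 26, 24 and 27 reads, and the pseudocount of 1 CPM exceeds the level in 2 of those 3 libraries. On the recovered reads the interaction was -0.64 by edgeR (adjusted p = 0.671), -0.69 by DESeq2 (adjusted p = 0.990) and -0.73 by limma voom (adjusted p = 0.373). In plain CPM the TNF fold was 22.4 ± 3.13 without and 14.2 ± 4.52 with TGFB1 and BMP2, with the joint level at 65.1 ± 27.6% of the product. A departure of Ccl20 from multiplied effects was therefore called on the log2(CPM + 1) scale, without the block too, and by none of the 3 fits on recovered reads. On the linear scale the joint level of 10.2 CPM lay below the 52.6 CPM that added effects would give, in all 3 numbers. The product of the separate effects was itself lower than that sum, at 17.4 CPM, so a level below the product is also below the sum.

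Cxcl10, a ligand of Cxcr3 that both TNF and interferons induce, went from 15.1, 17.1 and 19.8 CPM untreated to 153, 169 and 118 CPM with TNF. TGFB1 with BMP2 gave 25.0, 26.1 and 28.3 CPM, and all 3 ligands gave 103, 128 and 105 CPM. TGFB1 with BMP2 raised it without TNF and lowered it with TNF (TNF alone to all 3 ligands, a log2 change of -0.37, limma adjusted p = 0.00351), although the 2 groups given TNF overlapped in range. Its interaction was -0.96 (SE 0.14, adjusted p = 0.00121 by limma), with a TNF fold of 8.66 ± 2.36 without and 4.25 ± 0.602 with TGFB1 and BMP2. Ccl7, a monocyte attractant and a close relative of Ccl2, had the highest level among the uncalled chemokines and an interaction of -0.44 (adjusted p = 0.0820 by limma), and edgeR did call it (-0.50, adjusted p = 0.0385).

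**Figure D2:**
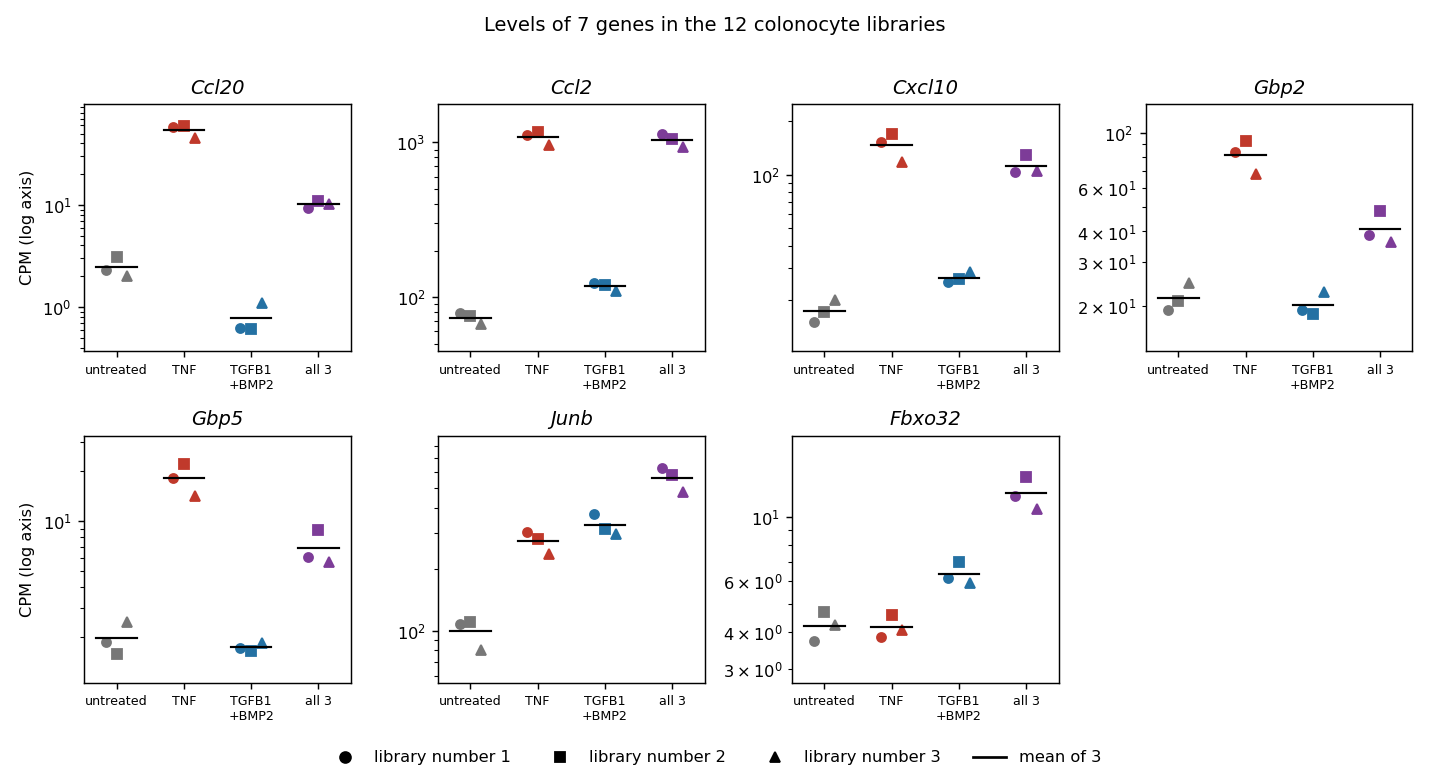
CPM of 7 genes in the 12 libraries on log axes, with 1 symbol per library number and a line at the mean of 3. Ccl20 falls with TGFB1 and BMP2 at both TNF states, Ccl2 stands near the same level in both groups with TNF, and Fbxo32 is highest with all 3 ligands.

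Interferon-stimulated genes are the antiviral and antibacterial genes switched on by STAT and IRF factors. Of 39 tested, 6 (15.4%, against 0.262% of all genes) were called, all lower. The list median was -0.45, against -0.01 over all genes. All 39 rose with TNF alone, as did 8.88% of all genes tested. Of the 39 interaction values 38 were negative, as were 52.9% of all genes tested. Both comparisons use the untreated and the TNF libraries. The 6 were Gbp2, Gbp3, Gbp4, Gbp5, Parp14 and Cmpk2. Gbp2, a guanylate-binding protein that coats pathogen vacuoles, stood at 19.2, 20.8 and 24.8 CPM untreated and at 83.8, 92.6 and 68.6 CPM with TNF. It stood at 19.3, 18.5 and 22.7 CPM with TGFB1 and BMP2, and at 38.5, 48.3 and 36.3 CPM with all 3. The untreated and TGFB1 with BMP2 groups overlapped, whereas each library with all 3 ligands was below each with TNF alone. The Gbp2 interaction was -0.88 (SE 0.15, adjusted p = 0.00676 by limma), and DESeq2 did not call it (adjusted p = 0.0606).

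Gbp5, a guanylate-binding protein linked to inflammasome assembly, followed the same order from lower levels. It stood at 1.87, 1.57 and 2.45 CPM untreated, 18.2, 22.1 and 14.2 CPM with TNF, 1.73, 1.66 and 1.84 CPM with TGFB1 and BMP2, and 6.13, 8.85 and 5.68 CPM with all 3. Its joint level was 42.7 ± 9.43% of the product, the lowest of the 30, with an interaction of -1.18 (SE 0.21, adjusted p = 0.0100 by limma). Gbp4 was called lower at -0.79 (adjusted p = 0.00815 by limma), Gbp3 at -0.59 (adjusted p = 0.0140) and Gbp9, which is not in the list, at -0.57 (adjusted p = 0.00764). Guanylate-binding proteins are close paralogs, and Gbp4 (chromosome 5, 105115767 to 105139586) lies almost wholly within Gbp9 (105077630 to 105139539) on the same minus strand, so their reads cannot be assigned with certainty. Parp14, an ADP-ribosyltransferase, went from 47.8 to 159 CPM with TNF and from 51.8 to 111 CPM with TNF beside TGFB1 and BMP2 (interaction -0.66, adjusted p = 0.0240 by limma). Cmpk2, a mitochondrial nucleotide kinase, went from 11.9 to 44.2 CPM and from 11.98 to 27.1 CPM (interaction -0.72, adjusted p = 0.0370 by limma). DESeq2 called neither Parp14 (adjusted p = 0.270) nor Cmpk2 (adjusted p = 0.225).

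The other 33 interferon-stimulated genes were not called. Irgm1, an immunity-related GTPase and the uncalled member with the highest level, had a value of -0.30 (adjusted p = 0.126 by limma). Xaf1 and Rsad2 lay just outside the threshold, at -0.58 and -0.65 (adjusted p = 0.0615 each by limma), as did Ifrd1, which is in no list here (-0.25, adjusted p = 0.0615). Just inside it was Sgk1 (adjusted p = 0.0427). Ifit2, the 1 member above 0, had a value of 0.06 with a 95% interval of -0.08 to 0.19. Among the 18 antigen presentation genes, which load and display peptides, 0 were called, all 18 values were negative (52.9% of all genes) and the median was -0.13. The one with the highest level there was B2m, the shared light chain of class I molecules, at -0.04 (adjusted p = 0.983 by limma).

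Genes that carry and limit the NF-kB signal held 1 called gene in each of 3 lists (0.262% of all genes were called). Of 15 feedback inhibitors (6.67%; median -0.17) it was Nfkbia, which encodes the inhibitor that holds NF-kB in the cytoplasm. Nfkbia stood at 36.1, 37.9 and 31.8 CPM untreated, 174, 173 and 159 CPM with TNF, 43.7, 46.1 and 41.6 CPM with TGFB1 and BMP2, and 174, 179 and 159 CPM with all 3. The groups with TNF overlapped, and TGFB1 with BMP2 raised Nfkbia only slightly without TNF, a fold of 1.24 ± 0.06. Its interaction was -0.29 (SE 0.06, adjusted p = 0.0314 by limma). Of 10 subunits and upstream kinases (10.0%; median -0.10) it was Nfkb2, the precursor of the p52 subunit, at -0.33 (adjusted p = 0.00676), while Rela was at -0.10 (adjusted p = 0.900). Of 16 genes of the TNF receptor complex and survival (6.25%; median -0.05) it was Birc3, a ubiquitin ligase of that complex, which went from 8.50 to 34.0 CPM with TNF and from 13.3 to 34.6 CPM with TNF beside TGFB1 and BMP2 (interaction -0.56, adjusted p = 0.0121 by limma). Tnfaip3, the ubiquitin-editing inhibitor A20, was looked up after its values were seen and was not called (-0.23, adjusted p = 0.317 by limma).

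**Figure D3:**
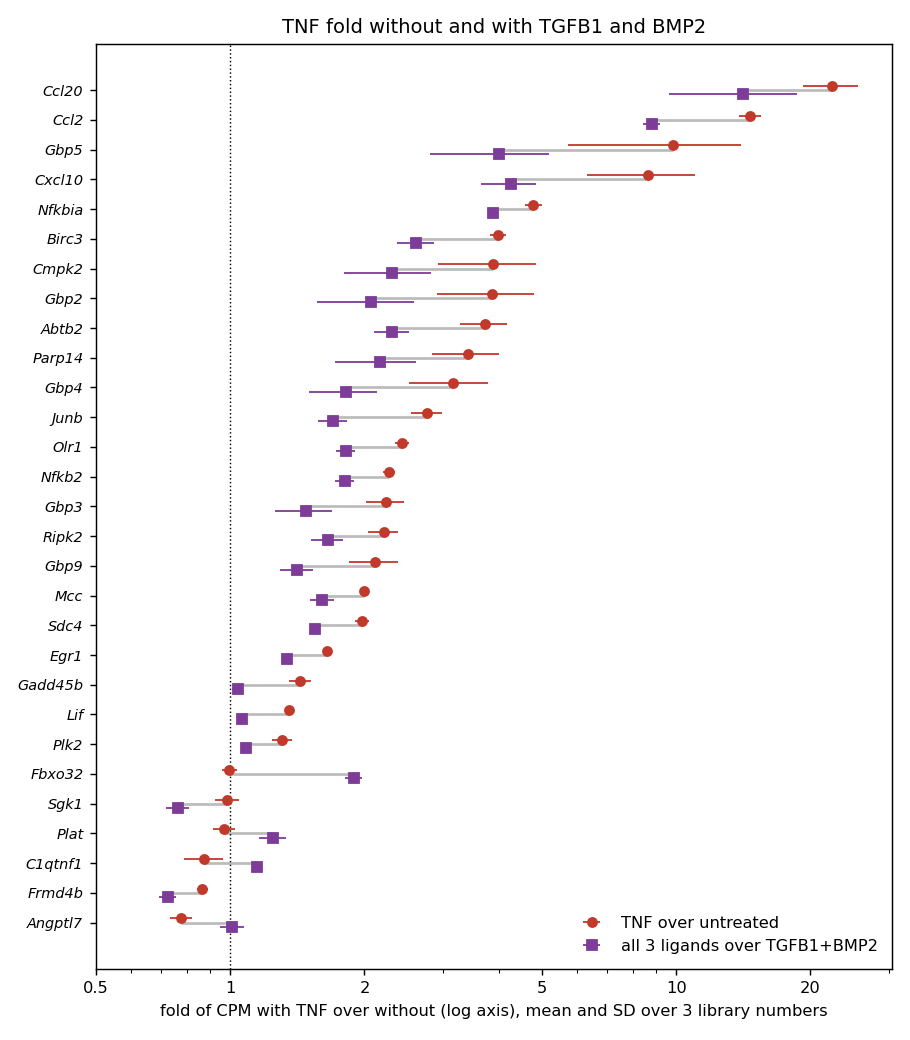
Fold of CPM with TNF over without, for 29 of the 30 called genes, in cells without (red circles) and with (purple squares) TGFB1 and BMP2, as mean and SD over 3 library numbers on a log axis. The fold is smaller with TGFB1 and BMP2 in the 25 lower genes plotted, and larger in Fbxo32, Plat, C1qtnf1 and Angptl7.

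Not all genes that TNF induced were called for a departure from multiplied effects, and the lack of a call does not show that effects multiplied. Of 15 inflammatory effectors and adhesion genes 14 rose with TNF alone (8.88% of all genes did) and 0 were called for the interaction (median -0.15). Of the 15 values 12 were negative (52.9% of all genes), the lowest at -0.52, and the median half-width of their 95% intervals was 0.25. Cd44, the hyaluronan receptor, went from 376 to 527 CPM with TNF and from 576 to 801 CPM with TNF beside TGFB1 and BMP2, an interaction of -0.01 with a 95% interval of -0.13 to 0.10. Vcam1, a leukocyte adhesion molecule singled out after its values were seen, went from 180 to 944 CPM and from 112 to 638 CPM, an interaction of 0.12 with an interval of -0.04 to 0.28. Of 16 cytokines and growth factors of inflammation, with a median of 0.02, 1 was called (6.25%, against 0.262% of all genes). It was Lif, a cytokine of the interleukin-6 family, which stood at 61.7, 58.3 and 62.3 CPM untreated, 83.1, 78.0 and 86.4 CPM with TNF, 96.1, 89.2 and 97.8 CPM with TGFB1 and BMP2, and 101, 97.1 and 102 CPM with all 3. Each agent alone raised Lif, and the last 2 groups overlapped. Its interaction was -0.35 (SE 0.06, adjusted p = 0.00621 by limma). Csf1, the macrophage growth factor, rose with TNF from 1008 to 1787 CPM and was at -0.18 (adjusted p = 0.156 by limma).

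Targets of TGFB held 3 called genes of 35 (8.57%, against 0.262% of all genes), Junb and Gadd45b among them, with a median of -0.04. TGFB1 with BMP2 raised 31 of the 35 and lowered 2, against 22.3% and 19.7% of all genes. Junb is an AP-1 subunit that both pathways induce. It stood at 108, 111 and 80.1 CPM untreated, 303, 280 and 238 CPM with TNF, 374, 315 and 298 CPM with TGFB1 and BMP2, and 622, 579 and 474 CPM with all 3. The joint level was the highest of the 4 groups and lay above the added effects in all 3 numbers, yet at 61.9 ± 9.81% of the multiplied effects. The Junb interaction was -0.70 (SE 0.07, adjusted p = 7.69e-06 by limma).

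Gadd45b, a stress-inducible activator of p38 signalling, stood at 82.4, 76.4 and 75.5 CPM untreated, 116, 117 and 104 CPM with TNF, 176, 175 and 159 CPM with TGFB1 and BMP2, and 180, 188 and 163 CPM with all 3. TNF raised Gadd45b without TGFB1 and BMP2, and the groups with them overlapped. Its interaction was -0.46 (SE 0.06, adjusted p = 0.000290 by limma). Fn1, fibronectin, was the target with the highest uncalled level, at 0.01 (adjusted p = 0.988 by limma).

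The SMAD proteins and their feedback showed 0 calls of 8, with a median of -0.04 and 95% intervals no wider than ± 0.32. Smad7, the inhibitory SMAD that TGFB signals induce, was looked up after its values were seen. It went from 39.8 to 160 CPM with TGFB1 and BMP2 and from 40.1 to 155 CPM with them beside TNF, an interaction of -0.05 with a 95% interval of -0.23 to 0.12. BMP targets, such as the Id inhibitors of differentiation, gave 0 of 18 (median 0.09), with Id3 at 0.10 (adjusted p = 0.924 by limma). Ligands, receptors and antagonists of both families gave 0 of 25 (median 0.01), with the secreted glycoprotein Fstl1 at -0.10 (adjusted p = 0.919 by limma).

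The AP-1 and immediate early genes answer many stimuli within minutes to hours. Their median was -0.10, and 2 of 26 were called (7.69%, against 0.262% of all genes): Junb and Egr1. Egr1, a zinc finger factor, went from 66.3 to 109 CPM with TNF and from 72.0 to 96.2 CPM with TNF beside TGFB1 and BMP2 (interaction -0.30, adjusted p = 0.0307 by limma). Klf6, a zinc finger factor with the highest uncalled level there, was at -0.18 (adjusted p = 0.460 by limma). Of the 23 matrix proteases and inhibitors (median -0.04), Plat, the tissue plasminogen activator, was called higher. Plat stood at 88.0, 89.0 and 76.8 CPM untreated, 88.2, 89.2 and 69.5 CPM with TNF, 41.4, 42.5 and 38.9 CPM with TGFB1 and BMP2, and 51.6, 56.6 and 45.1 CPM with all 3. TGFB1 with BMP2 lowered Plat at both TNF states, and each joint library lay above each library with TGFB1 and BMP2. Its interaction was 0.35 (SE 0.07, adjusted p = 0.0333 by limma).

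**Figure D4:**
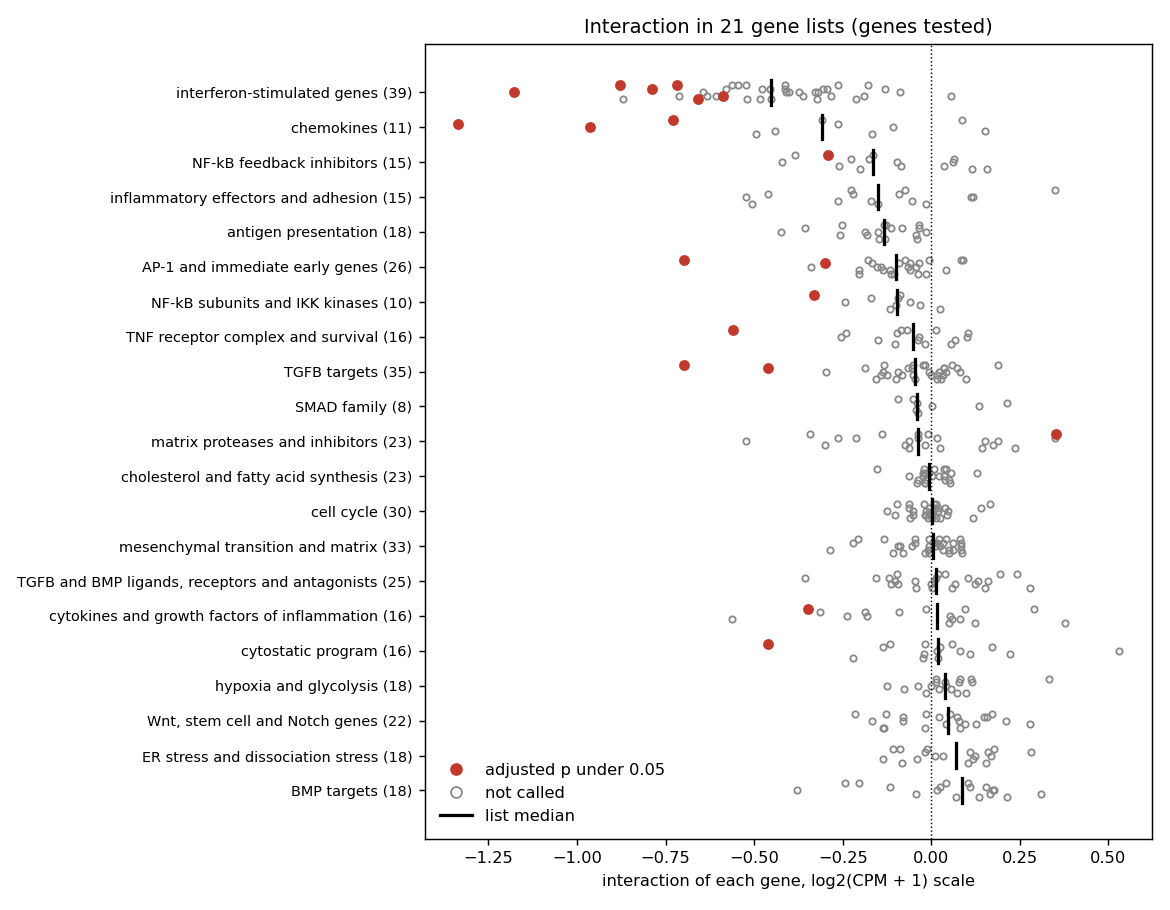
Interaction of the tested genes in 21 gene lists (1 called gene, in 2 of the lists, is not drawn) on the log2(CPM + 1) scale, with called genes in red, uncalled genes as open circles and a black bar at each list median. The interferon-stimulated genes have the lowest median (-0.45), then the chemokines (-0.31), and BMP targets have the highest (0.09). List members were chosen with earlier results of these data known.

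The remaining lists gave few calls. The cytostatic genes held 1 of 16 (6.25%, against 0.262% of all genes), again Gadd45b, with a median of 0.02. The cell cycle inhibitor Cdkn1a was at 0.02 (adjusted p = 0.988 by limma). There were 0 calls of 30 cell cycle genes (median 0.00), 33 genes of mesenchymal transition and matrix (median 0.00), 22 of the Wnt, stem cell and Notch group (median 0.05), 23 of cholesterol and fatty acid synthesis (median -0.01), 18 of hypoxia and glycolysis (median 0.04) and 18 of stress (median 0.07). Over all genes the median half-width of the 95% interval, which is not adjusted for the number of genes, was 0.18. The called value nearest to 0 was that of Frmd4b, at -0.25.

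The 4 genes above the multiplied effects were led by Fbxo32, an F-box subunit of a ubiquitin ligase known from muscle wasting. It stood at 3.72, 4.69 and 4.23 CPM untreated and 3.87, 4.60 and 4.09 CPM with TNF. It was at 6.17, 6.97 and 5.91 CPM with TGFB1 and BMP2, and at 11.8, 13.7 and 10.7 CPM with all 3. The TNF fold of Fbxo32 was 1.00 ± 0.0385 without the other ligands and 1.89 ± 0.0805 with them, and the joint group did not overlap any other. Its interaction was 0.83 (SE 0.13, adjusted p = 0.00621 by limma). C1qtnf1, a secreted protein of the C1q and TNF-related family, went from 94.1 to 81.6 CPM with TNF and from 132 to 152 CPM with TNF beside TGFB1 and BMP2 (interaction 0.40, adjusted p = 0.00676 by limma). Angptl7, a secreted angiopoietin-like protein, went from 51.9 to 40.1 CPM and from 117 to 118 CPM (interaction 0.37, adjusted p = 0.0125 by limma).

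Abtb2, an ankyrin repeat and BTB domain protein, completed the 12 lowest values at -0.61 (adjusted p = 0.00408 by limma). It went from 9.32 to 34.2 CPM with TNF and from 25.6 to 58.7 CPM with TNF beside TGFB1 and BMP2. The 7 lower genes outside the naming rule, named after their values were seen, were Ripk2 (-0.40), Olr1 (-0.40), Sgk1 (-0.36), Sdc4 (-0.35), Mcc (-0.32), Plk2 (-0.27) and Frmd4b (-0.25). Ripk2 is the kinase of NOD receptor signalling, Olr1 a receptor for oxidised lipoprotein, Sdc4 a heparan sulfate proteoglycan, and Sgk1 and Plk2 are kinases. Without TGFB1 and BMP2, Sgk1 stood at 34.9 CPM untreated and 34.1 CPM with TNF (adjusted p = 0.834 by limma), and TNF lowered it beside TGFB1 and BMP2 from 75.1 to 57.6 CPM. Frmd4b fell with each treatment, from 306 CPM untreated to 265 with TNF, 272 with TGFB1 and BMP2, and 197 with all 3.

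Because a log scale asks about multiplied effects, each call was also set against added effects within each number, with no test. Of the 26 lower genes 21 had a joint level below the added effects in all 3 numbers, Ccl20, Cxcl10 and Gbp2 among them. Where the product lies below the sum, a level below the product is necessarily below the sum too. By mean that held for Ccl20 (17.4 against 52.6 CPM) and Gbp2 (76.3 against 80.2 CPM), among others, so their place below the sum is no separate result. For Cxcl10 the product was above the sum (227 against 156 CPM). Junb, Abtb2 and Olr1 were above the added effects in all 3 numbers, so they were lower only on the multiplied scale. Ripk2 lay on both sides. The 4 higher genes were above the added and the multiplied effects in all 3 numbers. For Plat the product was by mean above the sum (39.8 against 38.7 CPM), so the 2 sides were not separate results.

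The same contrast was fitted to the series' 12 colonoid libraries, which are epithelial organoids of the lines L42, L43 and L46, with 3 libraries each of vehicle, TNF at 100 ng/mL, TGFB1 at 3 ng/mL with BMP2 at 10 ng/mL, and all 3 ligands. It gave 0 calls of 11413 genes by limma and 0 by edgeR, with 315 at an unadjusted p under 0.05. The standard error in colonoids was 0.318 in Junb (0.068 in colonocytes) and 0.390 in Abtb2 (0.094), but 0.081 in Birc3 (0.102). The lack of calls therefore does not show that the interaction was absent in colonoids. Of the 30 colonocyte genes 20 could be tested there, 10 with the same sign and 10 with the opposite sign. Ccl20, Ccl2, Cxcl10 and the guanylate-binding proteins called above were not listed in all 3 colonoid tables. Birc3 was at -0.56 in colonocytes and 0.10 in colonoids, and Frmd4b at -0.25 and 0.28. Among the 30, both had the smallest unadjusted p in the limma test of the difference given next. Nfkbia (-0.29 and -0.44), Cmpk2 (-0.72 and -0.42) and Parp14 (-0.66 and -0.32) were among the 10 with the same sign. The test of the difference between the culture systems called 0 of 10160 genes by limma and 0 by edgeR, with 292 at an unadjusted p under 0.05. The smallest adjusted p of the difference among the 30 was 0.111, in Frmd4b. The difference was called in 31 genes when colonoid line L46 was left out, and in 1 without line L43.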

How the data were processed

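Per the labels' protocols, an RNeasy kit was used for RNA and a TruSeq Stranded mRNA kit for libraries. The submitters' processing notes name build mm10 and the tools TopHat2 2.1.0, HTSeq 0.5.4p5, SAMtools 1.3.1, edgeR 3.4.2, bcl2fastq 2.16 and CASAVA. They do not say whether counting used strand, so reads of overlapping genes or close paralogs cannot be assigned with certainty. The authors deposited 1 table per pair of groups, in which library columns hold a signal, CPM scaled within that table. Per the file headers, the authors also gave a log2 fold change, an average log2 CPM, a p-value and a false discovery rate per gene, which were not used here. Each value was divided by the value of 1 read. All came out within 0.05 of a whole number, and the libraries shared by 2 tables had equal reads in 100% of genes. The reads of genes listed in all 3 tables were joined and scaled by TMM. limma 3.58.1 in R 4.3.3 (trended eBayes, two-sided) was fitted to log2(CPM + 1) of genes with a mean of at least 1 CPM, with replicate number as block.

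Samples were grouped by title. Checks on simulated data were made first. Alternatives were edgeR 4.0.16, DESeq2 1.42.0, limma voom, other scalings, pseudocounts and filters, no block, and libraries left out. The named genes are the 12 most positive and 12 most negative calls that had 1 sign in all 3 numbers and at least 5 CPM in a group, Ccl20, Smad4 and, per gene list, up to 4 calls and the uncalled gene with the highest level. Other genes are marked in the text. The samples and gene lists were chosen with earlier results of these data known. Coordinates are of GENCODE vM21, on the same assembly as mm10. The colon epithelium samples were not used. Of the called genes, 1 is not reported here by name or value.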

Additional observations from a re-analysis of the deposited data

How the results depend on the processing

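With the replicate block, the interaction count of 30 was 29 with total reads or DESeq2 size factors as scaling, 30 with a pseudocount of 0.5 and 34 with 5, 30 with a minimum of 5 CPM, 30 with genes that had all 12 libraries in any tables, 30 by edgeR, 41 by DESeq2 (25 shared with the 30) and 39 by limma voom (29 shared). Without the replicate block limma called 1 gene, edgeR called 0 (an alternative chosen after seeing the data), and the effect of TNF alone fell to 886 genes and that of TNF beside TGFB1 and BMP2 to 472. The pairing by number was checked on deviations from group means: r was 0.05 to 0.53 in 18 pairs of the same number and -0.39 to 0.24 in 36 pairs of different numbers. Among pairs of different numbers, the highest r was between untreated number 2 and TGFB1 with BMP2 number 1. The lowest was between untreated number 2 and TNF number 3. In 1 of the 18 pairs r was not over 0.1, and 11 of 12 libraries went best with their own number, so the samples share a number whose meaning the labels do not give. The exception was untreated number 2, which went best with number 1, so numbers 1 and 2 were not told apart in every library. A fit with no filter is the same fit, since all 11434 genes had a mean of at least 1 CPM. The fitted values are the same without the block, so the calls were lost through the errors. What sets the numbers apart was not tested.

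Leaving out 1 library, or all 4 of 1 number, gave 2 (without number 1) to 78 (without untreated replicate 3) interaction calls. Leaving out numbers gave 687 to 2009 calls for TNF alone, 3116 to 4961 for TGFB1 with BMP2, 2959 to 4526 for TGFB1 with BMP2 added to TNF, and 384 to 1167 for TNF added to TGFB1 with BMP2, in each case lowest without number 1. The difference between culture systems went from 0 calls to 1 without colonoid line L43 and 31 without L46. Signs were followed only in the called genes and in those of the naming rule, and they changed in 12 uncalled genes near 0. Vim reached 0.0023 with total reads and 0.00040 with DESeq2 size factors. With libraries left out the ranges were -0.0825 to 0.0275 for Smad4, -0.0111 to 0.0937 for N4bp1, -0.0598 to 0.0476 for Cd44, -0.094 to 0.0378 for B2m, -0.0240 to 0.0441 for Fn1, -0.0998 to 0.0154 for Timp3, -0.0191 to 0.0597 for Cdkn1a, -0.0638 to 0.0043 for Gapdh, -0.00470 to 0.0699 for Hsp90aa1, -0.0074 to 0.196 for Krt19, -0.0379 to 0.0342 for Vim and -0.0857 to 0.148 for Cd68.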

Other observations

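Several uncalled genes had fitted values as large as called ones, with wider intervals, and they are given as values with no explanation. Mx2, a dynamin-like antiviral GTPase, was at 3.26 CPM untreated, 20.7 with TNF, 3.97 with TGFB1 and BMP2, and 13.5 with all 3 (interaction -0.87, adjusted p = 0.121 by limma). Plau, the urokinase-type plasminogen activator, was at 31.7, 33.9, 37.3 and 51.4 CPM in the same order (interaction 0.35, adjusted p = 0.0870), beside Plat, the other plasminogen activator, which was called higher. Hk2, the first enzyme of glycolysis, was at 30.6, 35.8, 36.6 and 54.1 CPM (interaction 0.33, adjusted p = 0.208). Bmf, a cell death gene of the BH3-only group, was at 4.77, 2.56, 4.48 and 3.86 CPM (interaction 0.53, adjusted p = 0.394). These 4 genes were chosen after their values were seen.

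Pdgfb, a growth factor subunit, had the largest joint rise among the inflammatory growth factors with effects that stayed near multiplied ones. It stood at 7.83 ± 0.882 CPM untreated, 24.5 ± 1.27 with TNF, 66.1 ± 6.13 with TGFB1 and BMP2, and 170 ± 18.6 with all 3 (SD, n = 3 each). Its interaction was -0.19, with a 95% interval of -0.42 to 0.05, and it was chosen after its values were seen.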
